A study of Homo sapiens with 36 samples.

Results

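Regions of chromatin that dexamethasone (DEX) opened in BT549 cells at both 2 h and 4 h, and that held no peak when DEX was given with the SWI/SNF inhibitor BRM014, are described here and called blocked regions. BT549 is a triple-negative breast cancer cell line, and open chromatin was mapped by ATAC-seq, in which a transposase cuts accessible DNA. The authors deposited 1 peak list for each of 36 libraries, and overlapping peaks on chromosomes 1 to 22 and X were merged into 259704 regions (hg38). The blocked regions were chosen by the presence of peaks: in 3 of 3 siCtl_DEX and 0 of 3 siCtl_Veh libraries, in 4 of 4 DEX_DMSO and 0 of 4 DMSO libraries, and in 0 of 4 DEX_BRM014 libraries. This rule kept 1058 regions, 0.407% of all. The count fell to 151 when all lists of an experiment were trimmed to the same number of best peaks. Those 151 were 79.9% of the 189 regions that DEX opened at both times in that setting, against 79.5% without trimming.

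The groups came from 3 experiments. In the first, cells received siRNA for 72 h, either a control (siCtl) or one against the transcription factor GATA6, and then vehicle or 500 nM DEX for 2 h (siCtl_Veh, siCtl_DEX, siGATA6_Veh and siGATA6_DEX, 3 libraries each). In the second, cells for which no siRNA is named received DMSO or 10 µM BRM014 for 4 h, each alone or with 500 nM DEX for 4 h (DMSO, DEX_DMSO, BRM014 and DEX_BRM014, 4 libraries each). In the last, siRNA against both SWI/SNF ATPases, BRG1 and BRM, was set against control siRNA, with no DEX in either (siBRG1_siBRM and siCtl_only, 4 libraries each). All libraries came from 1 cell line, and the titles number the replicates as biological ones. Libraries held 37184 to 131423 peaks, and those with BRM014 held fewer (41026 to 64198) than the DMSO and DEX_DMSO libraries (88348 to 103956). As a check of the line, a summit lay within 1 kb of an end of VIM, FN1, CDH2, CAV1 and SPARC in 36 of 36 libraries and of ZEB1 in 32. Of the luminal markers, FOXA1 had one in 36 libraries, CDH1 in 20, GATA3 in 13, EPCAM in 11 and ESR1 and PGR in 0. The leukocyte markers PTPRC, CD3E and CD79A had one in 30, 16 and 0, and the endothelial markers TIE1 in 1 and PECAM1, CDH5 and VWF in 0.

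DEX is a synthetic ligand of the glucocorticoid receptor, a nuclear receptor that moves to the nucleus on binding hormone and attaches to DNA at glucocorticoid response elements, which are inverted repeats of a hexamer with a short spacer. Most of its binding sites lie far from promoters, at enhancers. SWI/SNF complexes use the ATPases BRG1 (SMARCA4) and BRM (SMARCA2) to slide or evict nucleosomes, and BRM014 inhibits both enzymes.

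Few blocked regions touched a promoter: 12 of the 34961 promoter windows that RefSeq gives for GRCh38.p14 (250 bases before each listed start) overlapped one. Shown here are the 3 protein-coding ones with a receptor or AP-1 element inside the overlap, and for contrast the overlapped promoter with the strongest peak, ABCA6, which holds none of the 8 motifs searched. CIDEC encodes a lipid droplet protein and is a known target of the receptor in fat cells, TMCC1 a membrane protein of the endoplasmic reticulum, CAMKK1 a kinase that activates other calcium-dependent kinases, and ABCA6 a transporter of the ABC family. Each sequence is the stretch of the window inside the blocked region, on the minus strand, at chr3:9878813-9879062 for CIDEC, chr3:129724114-129724206 for TMCC1, chr17:3890744-3890847 for CAMKK1 and chr17:69141896-69142111 for ABCA6. Starts of CIDEC, TMCC1 and CAMKK1 are among several that RefSeq lists for the gene. Capitals mark the receptor's hexamer AGAACA or its complement TGTTCT, a relaxed form of the response element (GNACA, any 3 bases, then TGTNC), and the AP-1 element TGANTCA.
CIDEC: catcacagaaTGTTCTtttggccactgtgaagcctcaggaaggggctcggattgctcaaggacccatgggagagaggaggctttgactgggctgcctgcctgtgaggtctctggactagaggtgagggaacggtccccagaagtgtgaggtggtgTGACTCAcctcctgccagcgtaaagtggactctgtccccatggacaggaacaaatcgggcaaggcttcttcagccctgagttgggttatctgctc
TMCC1: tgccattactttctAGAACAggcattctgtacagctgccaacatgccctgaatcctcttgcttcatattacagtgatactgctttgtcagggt
CAMKK1: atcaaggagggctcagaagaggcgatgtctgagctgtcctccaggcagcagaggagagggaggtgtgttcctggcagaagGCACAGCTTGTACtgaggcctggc
ABCA6: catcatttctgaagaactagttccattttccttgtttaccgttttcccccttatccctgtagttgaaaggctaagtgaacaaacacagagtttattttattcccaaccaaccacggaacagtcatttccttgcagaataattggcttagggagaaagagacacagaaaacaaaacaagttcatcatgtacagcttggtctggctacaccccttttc

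Counted on both strands over the whole windows, the hexamer, which is also part of the full element, stood in 7 of the 12 overlapped promoters and in 12.4% of all. The relaxed element stood in 1 of 12 (CAMKK1) and in 0.329% of all, and the full element (AGAACA, any 3 bases, then TGTTCT) in 0 of 12 and in 0.00286% (1 promoter). TGANTCA was found in 1 of 12 (CIDEC; 6.54% of all), the TEAD element GGAATG in 2 (11.9%), the GATA element AGATAA in 3 (9.18%), the core of the CTCF site (CCAC, any base, AG, any 2 bases, then GGC) in 0 (0.515%) and the NF1 element (TTGGC, any 5 bases, then GCCAA) in 0 (10 promoters of all). A match describes letters in a window and is no measured binding. Of the 12 promoters, 6 belong to lncRNA genes. The sequence of the distal blocked regions was not analysed here.

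The blocked regions with the strongest peaks had LAMA3, HAS2, THADA and BTG1 as their nearest protein-coding genes. Strength is given as the fold enrichment that the authors' peak caller wrote for the highest peak of a library in the region, and regions were ranked by the mean percentile of that fold within 7 libraries, 3 siCtl_DEX and 4 DEX_DMSO. These values helped to choose the regions, so they are a description. The first by rank lay inside LAMA3, which encodes the α3 chain of laminin-332 in epithelial basement membrane, at 18:23725655-23726227 (percentile 91.3). Its fold was 22.4, 24.6 and 27.7 in siCtl_DEX, 28.7, 20.3, 27.2 and 20.6 in DEX_DMSO, and 22.5, 28.6 and 23.0 in siGATA6_DEX, which the rule did not use. All 10 DEX libraries without BRM014 thus held it at 20.3-fold or more, and of the others only siBRG1_siBRM replicate 2 did, at 3.92-fold. LAMA3 held 2 more blocked regions, at 18:23704306-23704637 and 18:23717776-23718064, whose folds in the DEX_DMSO libraries ran from 3.93 to 6.41.

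The next lay 25.8 kb outside HAS2, which makes the matrix polysaccharide hyaluronan, at 8:121586114-121586533. Its fold was 17.2, 22.9 and 24.5 in siCtl_DEX, 21.0, 20.5, 20.3 and 20.1 in DEX_DMSO, and 18.7, 14.9 and 21.8 in siGATA6_DEX. The 4 DEX_DMSO libraries lay closer together than the 2 groups treated for 2 h. A region inside THADA, a gene found rearranged in thyroid adenomas, followed at 2:43269744-43270107 (21.4, 17.5 and 25.1 in siCtl_DEX and 17.0, 18.1, 20.7 and 19.0 in DEX_DMSO). BTG1, an antiproliferative gene, had one 109 kb away at 12:92030682-92030995 (22.0, 23.8 and 26.9 in siCtl_DEX and 17.9, 14.6, 20.7 and 11.9 in DEX_DMSO). In the remaining 4 of the first 8, inside SHLD2, a DNA repair gene, and MALRD1, 179 kb from the protocadherin gene PCDH9 and 8.93 kb from the anion exchanger gene SLC26A3, the mean percentile ran from 81.3 to 82.3. The region at SLC26A3 also held a peak in siGATA6_Veh replicate 3, at 5.67-fold.

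**Figure D1:**
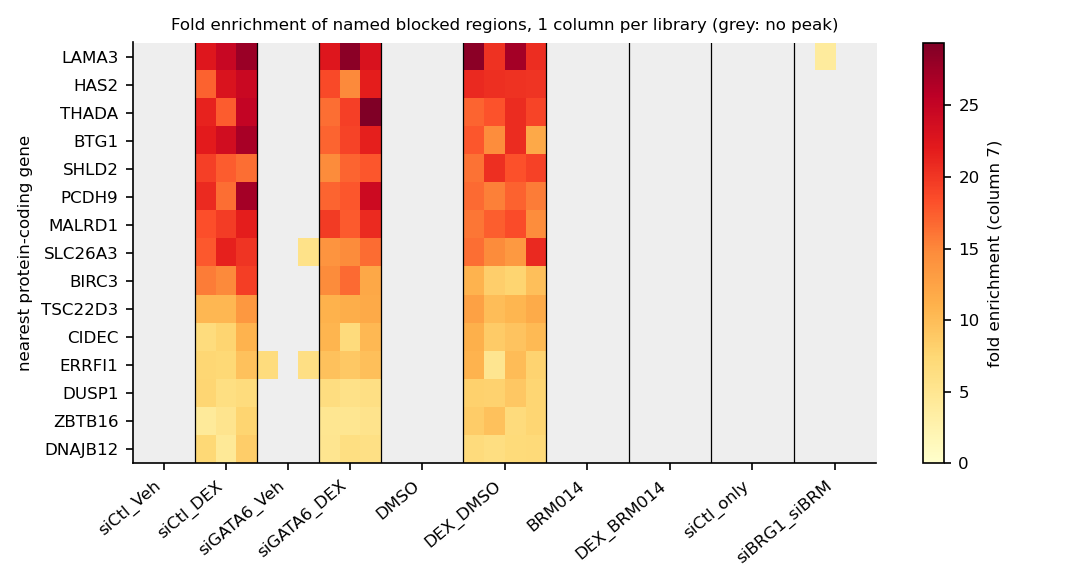
Fold enrichment (column 7 of the peak lists, colour scale) at 15 named blocked regions, 1 row per region and 1 column per library, with grey where a library held no peak. Colour fills the siCtl_DEX, siGATA6_DEX and DEX_DMSO columns and is otherwise limited to siGATA6_Veh libraries at SLC26A3 (5.67) and ERRFI1 (6.77 and 6.1) and 1 siBRG1_siBRM library at LAMA3 (3.92).

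Known targets of the glucocorticoid receptor often lay near a blocked region. Of a list of 36 such genes, 12 (33.3%) had one inside the gene or within 50 kb, beside 1202 of 19970 protein-coding genes (6.02%). The list's genes also had more regions of any kind around them, with a median of 27.5 against 20. Within 10 kb the counts were 8 of 36 against 3.02%, and within 100 kb 16 of 36 against 9.5%. Because DEX opening chose the regions, nearness to DEX targets is not independent of the rule. Nor was it particular to blocked regions. Regions opened by DEX that kept a peak in DEX_BRM014 libraries also lay near FKBP5, ZBTB16, DDIT4, KLF9 and BIRC3. Shares of list genes near such kept regions are not given here.

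TSC22D3, the gene of GILZ, a protein that dampens inflammation, had 5 blocked regions over 73.9 kb at X:107673986-107747862, 1 of them inside the gene. The highest of them by rank lay 12.7 kb outside the gene at X:107700312-107700749, with folds of 10.5, 10.5 and 13.6 in siCtl_DEX, 12.7, 9.9, 10.6 and 11.6 in DEX_DMSO, and 11.0, 11.4 and 11.8 in siGATA6_DEX. No region that DEX opened at both times near TSC22D3 held a peak in a DEX_BRM014 library. FKBP5, a co-chaperone that restrains the receptor, differed, with 4 blocked regions and 4 that held a peak in 1 to 3 DEX_BRM014 libraries. The blocked one at 6:35602393-35602589, deep in the gene, had folds of 5.81, 5.31 and 5.89 in siCtl_DEX, 4.73, 5.53, 4.9 and 5.42 in DEX_DMSO, and 7.62, 5.12 and 4.92 in siGATA6_DEX. The other 3 lay between 2.26 kb after and 0.516 kb before the FKBP5 start. They were weak, with mean percentiles of 25.5, 2.57 and 12.3, and the weakest had 3.28, 2.71, 3.35 and 3.11 in DEX_DMSO. A nearby FKBP5 region that was not blocked, at 6:35722276-35722845, had 9.3, 10.9, 9.52 and 8.85 in DEX_DMSO and 4.5, 5.36 and 5.8 in 3 DEX_BRM014 libraries, with no peak in the fourth.

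ZBTB16, a zinc-finger repressor, held 3 blocked regions and 2 partly kept ones. At 11:114154406-114154967 the folds were 4.14, 5.27 and 7.76 in siCtl_DEX and 8.57, 9.57, 6.85 and 7.66 in DEX_DMSO. DDIT4, an inhibitor of mTORC1, had 3 blocked regions at modest folds, 17.7 kb before its start, 4.67 kb after it and 35.7 kb after it. Closest to its start, at 10:72278475-72278723, the DEX_DMSO values were 3.31, 4.1, 4.65 and 3.72. A stronger region 25.2 kb before the DDIT4 start, at 10:72248252-72249118, had 13.4, 12.6, 14.5 and 12.1 in DEX_DMSO and was kept in 3 DEX_BRM014 libraries at 4.34, 4.69 and 5.0. Blocked and kept regions thus stood within 1 locus at both genes.

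KLF9, a Krüppel-like factor, had 1 region of each kind, all before its start. The blocked one, 3.9 kb before the start at 9:70418444-70418663, was weak, with 4.34, 3.62 and 4.41 in siCtl_DEX and 4.2, 4.15, 5.02 and 3.6 in DEX_DMSO. The one kept in 4 of 4 DEX_BRM014 libraries, 24.0 kb before it at 9:70438447-70438927, had 22.0, 23.2, 21.9 and 22.1 in DEX_DMSO and 6.42, 6.81, 6.53 and 7.11 in DEX_BRM014. The inhibitor libraries lay far below the DMSO ones there, although every one held the peak.

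DUSP1, a phosphatase that switches off MAP kinases, had blocked regions 1.34 kb and 4.49 kb before its start. The nearer one was weak (percentile 10.1), with 3.36, 3.13, 2.84 and 4.3 in DEX_DMSO. At the farther one, 5:172775525-172775844, the folds were 7.66, 6.28 and 6.67 in siCtl_DEX and 8.12, 8.02, 9.04 and 7.69 in DEX_DMSO. ERRFI1, a feedback inhibitor of EGFR, had 2, both 44.7 to 49.3 kb before its start. KLF15, a regulator of amino acid and glucose metabolism, had 2 that lay side by side. The apoptosis inhibitor BIRC3, CIDEC and PDK4, which restrains pyruvate dehydrogenase, had 1 each. Within 50 kb BIRC3 also had 1 region opened by DEX at both times that was kept in 4 of 4 DEX_BRM014 libraries. At BIRC3 (11:102306099-102306749, 11.1 kb outside the gene) the fold was higher at 2 h, 15.7, 14.9 and 19.5 in siCtl_DEX, than at 4 h, 10.8, 8.32, 7.79 and 9.86 in DEX_DMSO. The 2 sets of libraries come from separate experiments, so time and experiment cannot be told apart there. At CIDEC the values were 6.67, 7.75 and 10.8 in siCtl_DEX, 10.7, 6.85 and 10.4 in siGATA6_DEX, and 11.2, 8.65, 9.32 and 10.3 in DEX_DMSO.

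**Figure D2:**
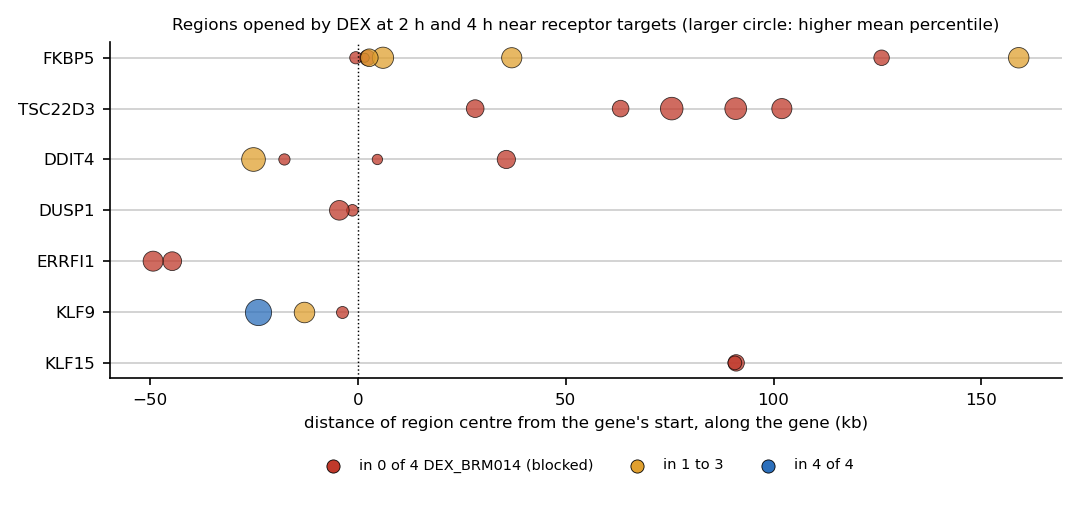
Regions opened by DEX at 2 h and 4 h near 7 receptor targets, by distance of the region's centre from the gene's start along the gene (kb), with circle size rising with the mean percentile of fold and colour giving the number of DEX_BRM014 libraries with a peak. The 5 regions at TSC22D3 are all in 0 of 4, FKBP5 has 4 in 0 and 4 in 1 to 3, and KLF9 has 1 of each kind.

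The other lists had fewer genes near a blocked region. YAP and TEAD targets had 4 of 24: RBMS3 with 2 regions, and F3 (tissue factor), IGFBP3 and PTPN14 with 1 each. Mesenchymal and matrix genes had 4 of 37, namely LAMA3, the cadherin gene CDH2, the matrix gene TGFBI and the repressor gene ZEB2. The list of GATA factors and cofactors had 2 of 12 (GATA6 and HNF4A), NF-κB and cytokine genes 2 of 20 (BIRC3 and TNFAIP3), and clock genes 2 of 16 (NR1D1 and PER3). None of 28 SWI/SNF subunit genes, 13 AP-1 factor genes or 36 ribosomal protein genes had a blocked region within 50 kb. With 12 to 37 genes in a list, shares between 0.0 and 16.7% rest on few genes beside the 6.02% of all genes.

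Among all protein-coding genes GSE1, a chromatin coregulator gene, had the most blocked regions, with 6 inside it over 82.0 kb at 16:85320505-85402464. FGGY, a carbohydrate kinase gene, held 4 inside it, and CWC27, a spliceosome gene, had 4 within 50 kb. These counts were not scaled to the regions of any kind around a gene. Such regions numbered 154 at GSE1, 78 at FGGY and 33 at CWC27, beside 27 at TSC22D3 with its 5 blocked regions and a median of 20. At GSE1 the DEX_DMSO folds of the 6 ran from 3.54 to 9.69, and a seventh region opened by DEX at both times kept a peak in 3 DEX_BRM014 libraries (3.54, 3.95 and 4.1). Of the genes with a blocked region nearby, 1063 had 1, 113 had 2, 21 had 3, and 5 had more. The regions were otherwise scattered: 77 (7.28%) lay within 10 kb of another, 814 lay over 100 kb from any other, and the median gap to the nearest was 451 kb.

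Blocked regions were distal. A region counted as distal if no end of a protein-coding or lncRNA gene came within 1000 bp of its centre, and 987 of 1058 (93.3%) were, beside 83.7% of all regions and 70.8% of the 62918 held by every siCtl_DEX and DEX_DMSO library. Inside a protein-coding gene lay 541 (51.1%). Off chromosome 8, where no start sites were used, the median distance to a protein-coding start was 68.6 kb for 983 blocked regions, 41.5 kb for all regions and 26.8 kb for those held by every such library. Only 1.32% lay within 1 kb of a start, against 22.3% of the last set, and 39.6% lay over 100 kb away, against 24.0%. The 37 regions that met the same rule except for a peak in 4 of 4 DEX_BRM014 libraries, called persistent, were 83.8% distal, with a median of 37.1 kb to a start, and the 236 with a peak in 1 to 3 of them were 91.1% distal, with 42.1 kb. Regions are not replicates of a condition, so these shares carry no test.

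**Figure D3:**
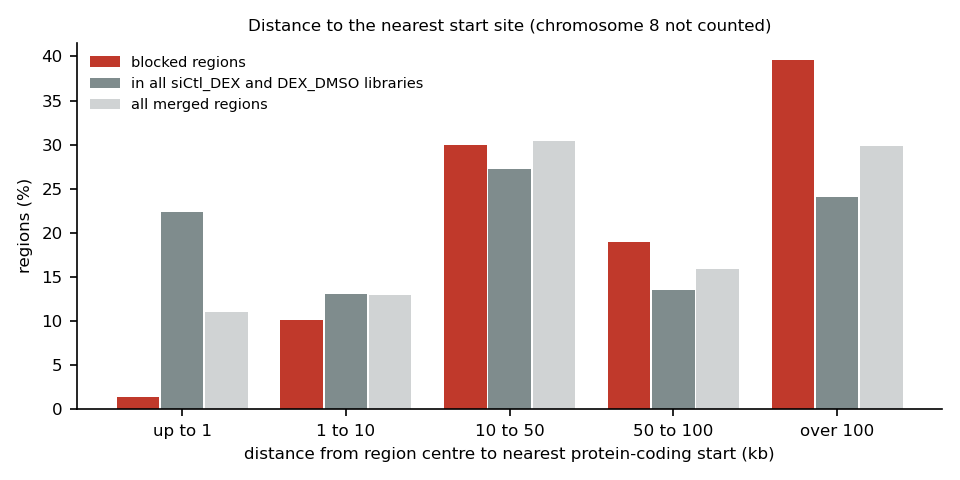
Share of regions (%) in 5 bins of distance from region centre to the nearest protein-coding start (kb), for the blocked regions, the regions held by every siCtl_DEX and DEX_DMSO library, and all merged regions. In the bin up to 1 kb the bars stand at 1.32, 22.3 and 11.0%, and over 100 kb at 39.6, 24.0 and 29.8%.

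The blocked regions measured 359 bp at the median, with quartiles of 271 and 460 bp and a range of 115 to 1206 bp, and their width comes from merging peaks of many libraries. Persistent regions lay closer to chromatin that was open without DEX. The median distance to the nearest of 61924 regions held by every siCtl_Veh and DMSO library was 10.5 kb for blocked and 2.15 kb for persistent regions. Within 5 kb of such a region lay 31.9% of the blocked regions and 56.8% of the persistent ones.

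Blocked regions were of middling strength. The median fold over them was 7.79, 7.96 and 9.64 in the siCtl_DEX libraries, where all peaks had medians of 8.42, 8.69 and 9.02. In the DEX_DMSO libraries it was 6.94, 6.65, 6.7 and 6.38, below the 7.71, 7.99, 7.73 and 8.03 of all peaks in each of the 4. In siGATA6_DEX, which the rule did not use, it was 7.38, 7.79 and 8.62, beside 8.38, 8.72 and 8.37. Persistent regions were higher in every one of these libraries, for example 9.81, 9.21, 8.63 and 8.77 in DEX_DMSO, and stood at 6.95, 6.81, 6.32 and 5.56 in DEX_BRM014. The mean percentile had a median of 42.0 in blocked regions (quartiles 32.4 and 53.6), 50.3 in the 236 regions kept in 1 to 3 DEX_BRM014 libraries, and 57.3 in persistent ones.

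Of the 1331 regions that DEX opened at both times, 79.5% were blocked, 17.7% were kept in 1 to 3 DEX_BRM014 libraries and 2.78% persisted. For reading these counts, DEX opened 1.65% of all regions at 2 h (all 3 DEX libraries and no vehicle library) and 0.947% at 4 h, and BRM014 with DEX lost 6.54%. Those contrasts chose the regions, so nothing is read from the members' count. Strength in DEX_DMSO was split at percentiles 28.9, 40.9 and 54.3 into 4 classes of the 1331. In classes 1 to 4, weakest first, 86.8, 85.3, 80.4 and 65.5% were blocked. Among 55491 regions that every DMSO and DEX_DMSO library held, 49.6, 42.1, 33.0 and 13.7% of those in the same percentile ranges held no peak in DEX_BRM014. Class 4 has no upper cut and held 333 of the 1331 and 40683 of the 55491, so strength is not matched within it. Presence in these libraries chose the blocked regions, so the 2 series are a description and carry no test.

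**Figure D4:**
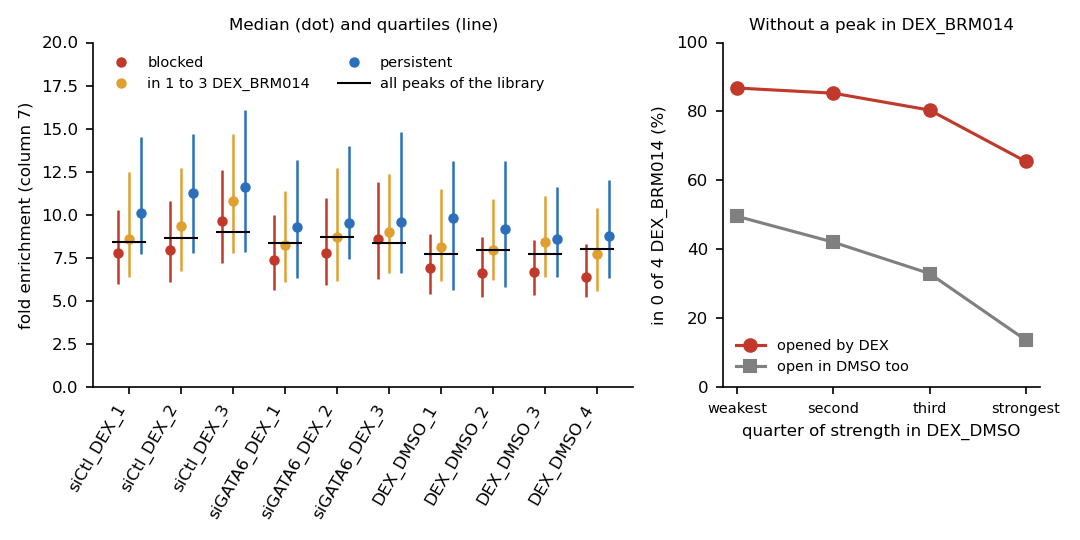
Left, median (dot) and quartiles (line) of fold enrichment in each DEX library without BRM014 for blocked regions, regions kept in 1 to 3 DEX_BRM014 libraries and persistent regions, with the median of all peaks of the library as a black bar. Right, share of regions (%) with a peak in 0 of 4 DEX_BRM014 libraries by class of strength, 86.8 to 65.5% for regions opened by DEX and 49.6 to 13.7% for regions open in DMSO too.

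At the edge of the rule, the median fold in DEX_DMSO was 6.68 for blocked regions and 7.85 for 145 regions that missed by 1 DEX_BRM014 library. It was 5.09 for 458 regions in 3 of 4 DEX_DMSO libraries, 7.25 for 73 in 1 of 4 DMSO libraries, 5.72 for 152 in 2 of 3 siCtl_DEX libraries, and 6.29 for 156 in 1 of 3 siCtl_Veh libraries.

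Knockdown of GATA6, a zinc-finger transcription factor, left most blocked regions responsive to DEX. A peak was held by 968, 973 and 1016 of the 1058 in the 3 siGATA6_DEX libraries (91.5, 92.0 and 96.0%) and by 3.88, 4.63 and 7.84% in the 3 siGATA6_Veh libraries. The groups did not overlap. Means were 93.2 ± 2.49% and 5.45 ± 2.11% (SD, n = 3 each), a difference of 87.7 percentage points (two-sided exact permutation p = 0.1, the smallest that 3 against 3 allows; 0.25 after Benjamini-Hochberg adjustment over 5 tests). Replicate 3 was highest in both groups and also had the most peaks of its group, 131423 and 126192.

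In all 3 siGATA6_DEX libraries and no siGATA6_Veh library stood 806 blocked regions (76.2%), where 1.58% of all regions were opened in this way. Of the 3219 other regions that DEX opened at 2 h in siCtl cells, 1409 (43.8%) were. Those regions did not have to be opened at 4 h too, as the blocked regions did. All 3 siGATA6_DEX libraries held 920 (87.0%), 2 held 83, 1 held 31 and none held 24. The 4 regions with the best percentile among the 24 lay inside ANK3, which encodes the scaffold ankyrin-G, inside GALNT2, an enzyme that starts O-glycosylation, 420 kb from IGFBP7, and inside ABCD3, a peroxisomal transporter. The one in ANK3 (10:60043648-60043845) had folds of 8.72, 8.57 and 13.9 in siCtl_DEX and 12.0, 10.9, 13.1 and 8.59 in DEX_DMSO and no peak with siGATA6. The one in GALNT2 (1:230191118-230191394) had 7.04, 7.23 and 7.9 in siCtl_DEX and 7.32, 6.99, 9.57 and 10.1 in DEX_DMSO. A ZBTB16 region at 11:114194431-114194629 and an FGGY region at 1:59600548-59600819 were also among the 24. This 2.27% stands beside 0.468% of all regions that siGATA6 lost with DEX, and 1.35% of the 89672 regions that all siCtl_DEX libraries held. It also stands beside 9.16% (295) of the 3219 other regions that DEX opened at 2 h, which is higher than in the blocked regions. The siCtl_DEX libraries helped to choose the blocked regions, so the comparison with them carries no test.

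The GATA6 gene itself held a blocked region at 18:22199018-22199354. Its fold was 6.68, 10.2 and 15.8 in siCtl_DEX, 11.4, 12.9 and 16.6 in siGATA6_DEX, and 7.46, 7.22, 11.1 and 7.56 in DEX_DMSO. DEX opened it with and without the siRNA.

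Regions chosen by the 4 h libraries alone allowed a test that the choice did not fix. There were 1958 of these, in 4 of 4 DEX_DMSO, 0 of 4 DMSO and 0 of 4 DEX_BRM014 libraries. A peak was held by 87.1, 84.4 and 93.3% of them in siCtl_DEX and by 18.8, 18.3 and 21.9% in siCtl_Veh. The difference was 68.6 percentage points, and the groups did not overlap (two-sided exact permutation p = 0.1, the smallest possible, adjusted 0.25). With an equal number of best peaks per library it was 33.6. In siGATA6_DEX the shares were 84.0, 83.9 and 91.8%, which overlapped those of siCtl_DEX, with a difference of −1.74 percentage points (86.5 ± 4.54% against 88.3 ± 4.56%, SD, n = 3 each, exact permutation p = 0.5, adjusted 0.5). Each siGATA6_DEX share lay below that of the same-numbered siCtl_DEX library. Exchange only within these 3 pairs gave an exact permutation p of 0.25, the smallest possible.

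The response to DEX in siGATA6 cells was also set against that of the persistent regions. A peak was held by 37, 35 and 37 of the 37 in siGATA6_DEX and by 5.41, 2.7 and 10.8% in siGATA6_Veh. The DEX effect was smaller in blocked than in persistent regions by 4.18 percentage points, but the groups overlapped (difference −4.18, two-sided exact permutation p = 0.2, adjusted 0.25). In this comparison 1 persistent region is 2.7% of the 37. Strength was not matched, with a median of the mean percentile of 42.0 in blocked and 57.3 in persistent regions. The difference was −1.73 with equal numbers of peaks and −8.87 when a peak had to cover at least 50% of a region.

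Without DEX few blocked regions held a peak in the groups that the rule left out, with 122 (11.5%) in at least 1 siGATA6_Veh library, 30 (2.84%) in at least 1 siCtl_only, 14 (1.32%) in at least 1 BRM014 and 9 (0.851%) in at least 1 siBRG1_siBRM library. BRM014 alone gave a peak at 3, 6, 6 and 1 of 1058, and siCtl_only at 15, 3, 3 and 10. With siBRG1_siBRM the counts were 5, 3, 0 and 2. The mean share was 0.236 ± 0.197% with siBRG1_siBRM and 0.733 ± 0.553% with siCtl_only (SD, n = 4 each), and the groups overlapped (difference −0.496 percentage points, two-sided exact permutation p = 0.2, adjusted 0.25). The rule kept only regions without a peak in siCtl_Veh and DMSO, so low shares without DEX were largely set by the choice. The siBRG1_siBRM lists were also shorter (37184 to 66607 peaks) than the siCtl_only lists (81639 to 87609). Nothing about the knockdown is read from this test. No blocked region was lost with the double knockdown, where 3.13% of all regions were, since none was held by all 4 siCtl_only libraries. That experiment had no DEX group, so how the knockdown acts on opening by DEX was not tested. In 911 blocked regions (86.1%) no library held a peak other than the 10 DEX libraries without BRM014, and 788 (74.5%) were held by all 10 of these and by no other. The rule fixed peaks in siCtl_DEX and DEX_DMSO and none in siCtl_Veh, DMSO and DEX_BRM014, so much of this pattern was set by the choice.

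**Figure D5:**
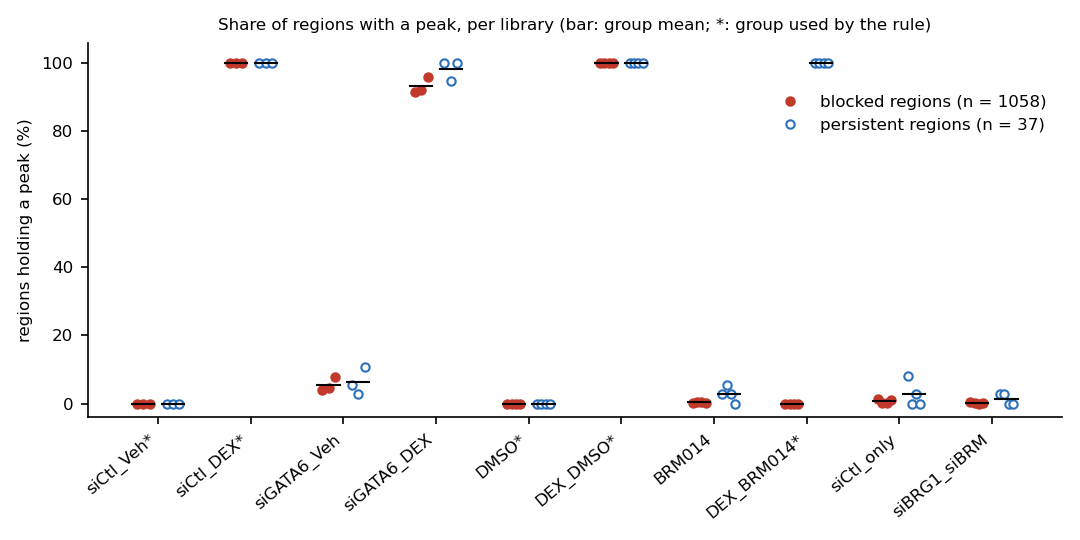
Share of blocked (filled) and persistent (open) regions holding a peak (%), 1 point per library, with a bar at the group mean and an asterisk at the groups that the rule used. Blocked regions stand at 91.5 to 96.0% in siGATA6_DEX, at 3.88 to 7.84% in siGATA6_Veh, and at 0 to 1.42% in BRM014, siCtl_only and siBRG1_siBRM.

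The region 32.2 kb from the olfactory receptor gene OR10A6 (11:7892153-7892532) was the one held by 2 siBRG1_siBRM libraries, at 4.77 and 6.25-fold, within the range of its DEX_DMSO values (5.4, 3.19, 5.93 and 8.3). The one inside PITPNM2, a lipid transfer protein gene (12:123149197-123149450), was at 3.99-fold in 1 siBRG1_siBRM library and at 6.3 and 4.07 in 2 BRM014 libraries, beside 15.4, 18.5 and 19.3 in siCtl_DEX. GATA6 had a peak of 4.74-fold in 1 siBRG1_siBRM library. In siGATA6_Veh, 936 blocked regions (88.5%) had no peak, 81 had 1 library, 31 had 2 and 10 had 3.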

How the data were processed

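ATAC-seq peak lists of 36 BT549 libraries, 1 per library, were used. MACS2, HOMER, SAMtools and bcl2fastq and the build GRCh38 (hg38) are named in the submitters' processing notes; for the aligner, read shifting, duplicates and caller settings the sources used here give nothing. The authors deposited for each peak a fold enrichment over background (a ratio), a −log10 p-value and a −log10 q-value, whose smallest value in any list was 1.301 (a q of 0.05). Peaks were called per library, and lists hold no read counts, so depth per library is unknown and is described by the number of peaks. A fold from a library with more reads is more precise, and a peak absent from a list was not detected, which is not the same as closed chromatin.

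From these lists, overlapping peaks (chromosomes 1 to 22 and X) were merged into regions, and presence in a library meant an overlap of at least 1 bp with one of its peaks. Opened regions were in every treated and no control library, lost regions in every control and no treated one. Shares of regions were compared over libraries with two-sided exact permutation tests of group means, adjusted over 5 tests by the Benjamini-Hochberg method (Python 3.11.15, scipy 1.17.1) and checked on simulated data. Libraries are numbered in the titles as biological replicates, and p-values measure only their spread. Gene ends, starts and promoter windows came from RefSeq (GRCh38.p14), with no start windows on chromosome 8 or for ZBTB16.

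The regions and the 9 gene lists were chosen with earlier results of these data known. Regions described singly were the 8 with the highest mean percentile of fold, the best one at each of 8 receptor targets, 4 each with no siGATA6_DEX library, most siBRG1_siBRM and most siGATA6_Veh libraries, and those at the 6 genes with most regions; others named, among them PDK4 and the second regions at a locus, were chosen after their values were seen. Some items these rules select are not reported here. Alternatives were a −log10 q of at least 5, an equal number of best peaks, a merge gap of 100 bp and other distances. The equal number was set within each experiment. Further alternatives were each library left out in turn, a replicate block and, added after seeing the data, a peak over at least 50% of the region.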

Additional observations from a re-analysis of the deposited data

Results flagged for a closer look

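Groups of 4 values were checked: DEX_DMSO folds at named regions, and shares of regions with a peak in BRM014, siCtl_only and siBRG1_siBRM. Of these 44 groups, 2 had a library far from the other 3, where chance alone flags about 1 in 20 groups. At the blocked region inside GATA6, the fold in DEX_DMSO replicate 3 was 11.1, and the next highest of the 4 libraries had 7.56. At the blocked region of TMCC1, a gene for a membrane protein of the endoplasmic reticulum, the same library had 12.3 and the next highest 8.4. Both regions held a peak in 3 of 3 siGATA6_DEX libraries.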

How the results depend on the processing

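The count of blocked regions was 774 of 904 opened regions (85.6%) at a −log10 q of at least 5, 1042 with a merge gap of 100 bp, 713 of 784 (90.9%) when a peak had to cover at least 50% of the region, and 151 of 189 (79.9%) with an equal number of best peaks per library, the only setting of these that moved it by over 1.5 times. Without 1 library it ranged from 1072 to 1196. The distal share was 91.2% at the stricter q, 90.1% with equal numbers, 91.6% with the wider cover and 77.3% at a distance of 5000 bp. The difference of siBRG1_siBRM from siCtl_only turned to 0.166 percentage points with equal numbers of peaks (exact permutation p = 1.0) and ranged from −0.774 to −0.268 without 1 library. That of siGATA6_DEX from siCtl_DEX over regions chosen at 4 h ranged from −4.36 to 0.783, turning positive without siCtl_DEX replicate 3. The difference of siGATA6_DEX from siGATA6_Veh ranged from 85.3 to 88.9 without 1 library and that of siCtl_DEX from siCtl_Veh over regions chosen at 4 h from 62.0 to 70.5, but with equal numbers of peaks the latter was 33.6. The difference between blocked and persistent regions ranged from −6.21 to −1.09 without 1 library, and was −1.73 with equal numbers and −8.87 with the wider cover. Equal numbers also gave −0.276 for siGATA6_DEX against siCtl_DEX over regions chosen at 4 h, and the wider cover −0.0351 for siBRG1_siBRM against siCtl_only. The cause of these shifts was not tested. Same-numbered libraries deviated together with correlations of 0.0974 to 0.276 between siGATA6_DEX and siGATA6_Veh and 0.0141 to 0.135 between siBRG1_siBRM and siCtl_only, so the numbers were not taken to pair the libraries, and 3 of 3 siGATA6_DEX libraries correlated best with their own number. So did 3 of 3 for siGATA6_DEX with siCtl_DEX (0.0991 to 0.296) and for siCtl_DEX with siCtl_Veh (0.0922 to 0.375). With a replicate block the exact permutation p was 0.25 in all 5 tests. That is the smallest that 3 pairs allow, and the 4 pairs of siBRG1_siBRM and siCtl_only allow 0.125. The planned choice of overlap gave the same regions by construction, since every peak lies within its merged region, and the planned motif search in the regions themselves was not run. Lists without read counts leave the depth behind a missing peak unknown.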

Other observations

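A small set of blocked regions held peaks after GATA6 knockdown without DEX. In 3 of 3 siGATA6_Veh libraries stood 10 regions (0.945%), and 4 of these, at LINGO2, NHSL1, DAB2IP and SETBP1, also held a peak in 1 siCtl_only library, as did 2.74% of all blocked regions. Inside LINGO2, a gene for a neuronal leucine-rich repeat protein, the region at 9:27967243-27967570 had folds of 9.2, 7.27 and 15.1 in siGATA6_Veh and 13.0, 13.1 and 20.5 in siGATA6_DEX, against 6.03, 7.35 and 6.63 in siCtl_DEX, no peak in siCtl_Veh and 4.03 in siCtl_only replicate 1. The siGATA6_DEX values lay above all siCtl_DEX values there. Near NT5DC3, at 12:103851095-103851542, the folds were 4.6, 5.95 and 6.93 in siGATA6_Veh and 12.9, 13.2 and 14.2 in siGATA6_DEX, against 12.3, 14.9 and 15.2 in siCtl_DEX. The regions 11.3 kb from GSTA5, of the glutathione S-transferase family, and 54.6 kb from TRPS1, a GATA-type repressor, were held at 5.26, 4.54 and 4.41 and at 4.6, 4.63 and 3.78 in siGATA6_Veh. Unlike at LINGO2, the siGATA6_DEX and siCtl_DEX values overlapped at NT5DC3, GSTA5 and TRPS1. This set of 10 regions was picked by its own values and carries no test. The share of all regions held by every siGATA6_Veh and no siCtl_Veh library was not counted. Whether 0.945% is high or low is therefore not known.

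Blocked regions were spread unevenly over chromosomes. Per 1000 regions held by every siCtl_DEX and DEX_DMSO library there were 16.8 blocked regions, with 26.1 on chromosome 18 (29 regions) and 4.64 on the gene-dense chromosome 19 (13 regions). Of 22 groups of 3 or more regions at most 100 kb apart, 1 lay at NFKBIZ, an atypical IκB protein gene, with 4 regions over 82.5 kb at 3:101992754-102075219, all held by 3 of 3 siGATA6_DEX and 0 of 3 siGATA6_Veh libraries. Another lay at SCARA5, a scavenger receptor gene, and NUGGC, with 4 over 168.0 kb.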
